A study of Mus musculus and Homo sapiens with 10 samples.

Results

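Transport of amino acids and small peptides across the enterocyte is carried by 8 genes described here at the level of DNA double-strand breaks. They were chosen by name, not by any measured value, as the GRCm38 gene bodies of Slc15a1, Slc6a19, Slc7a9, Slc3a1, Slc1a1, Slc7a8, Slc7a7 and Slc3a2, which are 8 of 21883 protein-coding genes on the main mouse chromosomes. In-suspension BLISS, the assay used, blunts broken DNA ends and ligates an adapter to them before the DNA is extracted, so that a sequenced end marks where the DNA was broken. Enterocytes, the absorptive cells of the intestinal lining, had been isolated from mouse jejunum and sorted on the surface marker Cd73 into 3 gates, Cd73 high, Cd73 mid and Cd73 negative, with 2 libraries of each, labelled M1 and M2. No treatment, strain, genotype, sex or age is given for any gate. The labels do not say whether M1 and M2 are separate mice, so p-values given here reflect no more than the spread of these 6 libraries, which may be technical. The series also holds TK6 libraries (a human lymphoblastoid line), which are not used here.

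Dietary protein reaches the intestinal surface as small peptides and free amino acids, and the enterocyte takes both up through its apical brush border and passes amino acids to the blood through its basolateral membrane. At the apical side PEPT1 (Slc15a1) takes up di- and tripeptides with protons, B0AT1 (Slc6a19) takes up neutral amino acids with sodium, the heavy chain rBAT (Slc3a1) and the light chain b0,+AT (Slc7a9) together exchange cystine and cationic for neutral amino acids, and EAAT3 (Slc1a1) takes up glutamate and aspartate. At the basolateral side the light chains LAT2 (Slc7a8, neutral amino acids) and y+LAT1 (Slc7a7, cationic for neutral amino acids with sodium) each pair with the heavy chain 4F2hc (Slc3a2), and Cd73, encoded by Nt5e, is a surface enzyme that makes adenosine from AMP. A break in the DNA of these genes is not a measure of their expression, so nothing below says how much of each transporter the cells made.

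The sequences around 5 of the gene starts follow; 4 are shown because break ends recurred there at particular bases, and that of Slc6a19 is shown as a start with few. Each covers 220 bases before and 30 bases from the start that RefSeq lists for the gene, from RefSeq's promoter table of GRCm38.p6, read 5′ to 3′ on the gene's own strand. Where several starts are listed, the most upstream is taken as the listed start here and below. This concerns Slc7a7 with 5 listed starts and Slc7a9 with 2. Capitals mark bases where at least 3 break ends were counted over the 6 libraries together. The stretches are chr14:121505225-121505474 (minus strand) for Slc15a1, chr19:28834915-28835164 (plus strand) for Slc1a1, chr19:8713868-8714117 (minus strand) for Slc3a2, chr14:54417915-54418164 (minus strand) for Slc7a7 and chr13:73692607-73692856 (minus strand) for Slc6a19.
Slc15a1: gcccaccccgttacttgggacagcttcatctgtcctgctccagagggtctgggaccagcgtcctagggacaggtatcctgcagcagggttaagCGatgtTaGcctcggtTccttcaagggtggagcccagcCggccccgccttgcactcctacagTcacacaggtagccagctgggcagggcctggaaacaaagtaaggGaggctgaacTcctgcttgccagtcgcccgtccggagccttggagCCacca
Slc1a1: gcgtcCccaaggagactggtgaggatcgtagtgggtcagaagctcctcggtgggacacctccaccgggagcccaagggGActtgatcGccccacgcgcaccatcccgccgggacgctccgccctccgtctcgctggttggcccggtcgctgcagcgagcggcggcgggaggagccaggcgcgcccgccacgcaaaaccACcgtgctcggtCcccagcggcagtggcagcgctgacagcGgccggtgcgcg
Slc3a2: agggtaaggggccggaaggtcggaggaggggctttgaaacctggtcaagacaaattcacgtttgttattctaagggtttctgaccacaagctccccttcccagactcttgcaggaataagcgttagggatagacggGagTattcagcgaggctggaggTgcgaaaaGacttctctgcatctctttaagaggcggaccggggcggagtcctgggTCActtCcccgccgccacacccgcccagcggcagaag
Slc7a7: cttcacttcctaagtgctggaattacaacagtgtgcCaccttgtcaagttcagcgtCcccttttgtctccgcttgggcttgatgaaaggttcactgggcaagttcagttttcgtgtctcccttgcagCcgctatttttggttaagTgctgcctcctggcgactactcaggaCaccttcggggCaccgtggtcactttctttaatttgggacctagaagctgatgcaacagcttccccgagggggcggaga
Slc6a19: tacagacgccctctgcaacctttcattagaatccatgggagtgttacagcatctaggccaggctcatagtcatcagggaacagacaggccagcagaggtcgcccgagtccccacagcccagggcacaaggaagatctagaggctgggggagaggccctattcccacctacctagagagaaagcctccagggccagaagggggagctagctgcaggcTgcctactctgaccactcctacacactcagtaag
The Slc15a1 stretch held 160 break ends with 11 bases in capitals, the Slc1a1 stretch 118 with 8, the Slc3a2 stretch 102 with 8 and the Slc7a7 stretch 77 with 6. The Slc6a19 stretch held 22 with 1. Each stretch is 250 bases long. Since they were chosen by their break ends, the difference in number between them is not a result.

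Break ends on the main chromosomes numbered 1522615 and 1272771 in the Cd73 high libraries, 4757961 and 5160171 in the Cd73 mid libraries and 13043514 and 12585228 in the Cd73 negative libraries. Depth therefore moved with the gate, and the 2 cannot be told apart in this design. Thinning every library to 1272771 break ends was done as an alternative, and it makes only the totals equal. It was 1 random draw, and how far values would move between draws was not measured. The share of break ends at positions hit more than 1 time was 6.32% and 6.38% in Cd73 high, 12.8% and 16.6% in Cd73 mid and 25.5% and 26.2% in Cd73 negative libraries. Breaks in DNA cannot check the sorted cell type; the 8 genes listed as enterocyte markers together had 230 to 232 counts per 1000000 break ends in gene bodies in Cd73 high, 229 to 249 in Cd73 mid and 240 to 260 in Cd73 negative libraries, with 0 called in any comparison. Lymphocyte marker genes had 222 to 229 in Cd73 high, 165 to 189 in Cd73 mid and 160 to 191 in Cd73 negative libraries; 7 of the 8 could be tested and all 7 had positive log2 fold changes in Cd73 high against negative (median 0.57) with 0 called, none was at 0 in any library, and their part in the values below was not tested.

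The main comparison asked whether breaks in the transporter genes differ between Cd73 gates. They did not differ detectably: 0 of the 8 gene bodies passed an adjusted p of 0.05 in Cd73 high against Cd73 negative, in Cd73 mid against Cd73 negative or in Cd73 high against Cd73 mid (edgeR quasi-likelihood test with Benjamini-Hochberg adjustment over 17805 genes, which all 8 entered by passing the low-count filter). Over all genes tested, 0.00562% (1 gene, Cdk5rap2, which encodes a centrosomal protein and was higher in Cd73 high) were called in Cd73 high against negative, 0% in Cd73 mid against negative and 0% in Cd73 high against mid, so a count of 0 among 8 is at the background. At an unadjusted p under 0.05 there were again 0 of 8 transporter genes in each comparison, against 8.75%, 3.16% and 4.52% of all genes tested in the same order of comparisons. DESeq2 also called 0 of the 8 in each.

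PEPT1 is the apical carrier of di- and tripeptides. Slc15a1 had 60 and 37 break ends in Cd73 high, 154 and 155 in Cd73 mid and 438 and 421 in Cd73 negative libraries. Scaled to counts per 1000000 break ends in gene bodies (CPM, with TMM scaling), these were 82.2 and 61.9 in Cd73 high, 67.0 and 58.4 in Cd73 mid and 66.5 and 63.0 in Cd73 negative libraries. The gates overlapped, since the Cd73 high libraries held the highest value and the next to lowest. The log2 fold change was 0.17 ± 0.19 (SE; edgeR adjusted p = 0.837) in Cd73 high against negative, -0.05 ± 0.14 (0.998) in Cd73 mid against negative and 0.22 ± 0.20 (0.9997) in Cd73 high against mid.

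Slc6a19 encodes the sodium-coupled carrier of neutral amino acids. It held 21.9 and 36.8 CPM in Cd73 high, 26.1 and 34.3 CPM in Cd73 mid and 32.2 and 29.6 CPM in Cd73 negative libraries, from only 16 and 22 break ends in the Cd73 high libraries. The Cd73 high libraries lay at both ends of the range. The log2 fold change was -0.11 ± 0.27 (SE; edgeR adjusted p = 0.949) in Cd73 high against negative and -0.03 ± 0.18 (0.998) in Cd73 mid against negative.

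The cystine and cationic amino acid exchanger is made of Slc7a9 and Slc3a1, which are the genes mutated in human cystinuria. Slc7a9, its light chain, held 20.5 and 28.4 CPM in Cd73 high, 21.7 and 22.2 CPM in Cd73 mid and 20.8 and 16.0 CPM in Cd73 negative libraries. Its log2 fold change in Cd73 high against negative, 0.39 ± 0.31 (SE; edgeR adjusted p = 0.761; 95% interval -0.22 to 1.01), was the highest of the 8 and also had the widest interval. After thinning to equal depth it was 0.79 (edgeR adjusted p = 0.681). The heavy chain gene Slc3a1 held 41.1 and 35.1 CPM in Cd73 high, 34.3 and 41.4 CPM in Cd73 mid and 49.9 and 43.5 CPM in Cd73 negative libraries. Both Cd73 negative values lay above the other 4, an order whose share among all genes tested was not counted. The log2 fold change of Slc3a1 was -0.28 ± 0.23 (SE; edgeR adjusted p = 0.765) in Cd73 high against negative and -0.30 ± 0.16 (edgeR adjusted p = 0.998, unadjusted p = 0.0694) in Cd73 mid against negative, the smallest unadjusted p of the 8 genes in that comparison. With each position counted at most 1 time per library, Slc3a1 had -0.42 in Cd73 high against negative (edgeR adjusted p = 0.970, unadjusted p = 0.0544). In Cd73 mid against negative it then had -0.39 (edgeR adjusted p = 0.99997, unadjusted p = 0.00714). Neither was called. The Slc3a1 body shares 1731 bases with Prepl, and 35 of its 860 break ends (4.07%) lay there and cannot be given to either gene.

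Slc1a1, the apical glutamate and aspartate carrier, held 68.5 and 66.9 CPM in Cd73 high, 67.0 and 55.0 CPM in Cd73 mid and 73.5 and 66.0 CPM in Cd73 negative libraries. The ranges of all 3 gates touched or overlapped. The log2 fold change was -0.04 ± 0.19 (SE; edgeR adjusted p = 0.974) in Cd73 high against negative and -0.20 ± 0.14 (0.998) in Cd73 mid against negative.

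Among the basolateral genes, the light chain gene Slc7a8 held 65.7 and 110 CPM in Cd73 high, 80.4 and 79.8 CPM in Cd73 mid and 77.0 and 81.5 CPM in Cd73 negative libraries. The 2 Cd73 high libraries were the lowest and the highest of the 6. Slc7a7, the light chain mutated in human lysinuric protein intolerance, held 72.6 and 85.3 CPM in Cd73 high, 90.4 and 84.7 CPM in Cd73 mid and 97.0 and 84.3 CPM in Cd73 negative libraries. Of its 1740 break ends, 6 (0.345%) lay in 228 bases shared with Oxa1l. The log2 fold change in Cd73 high against negative was 0.12 ± 0.17 (SE; edgeR adjusted p = 0.888) for Slc7a8 and -0.21 ± 0.17 (0.773) for Slc7a7. In the random draw that thinned all libraries to equal depth, Slc7a8 had 0.56 in Cd73 high against negative (edgeR adjusted p = 0.519, unadjusted p = 0.0179). In Cd73 mid against negative it had 0.44 (edgeR adjusted p = 0.987), and it was again not called.

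Slc3a2, the shared basolateral heavy chain, held 38.4 and 36.8 CPM in Cd73 high, 40.4 and 40.3 CPM in Cd73 mid and 46.1 and 45.0 CPM in Cd73 negative libraries. The 3 gates did not overlap, with Cd73 high lowest and Cd73 negative highest. How many of all genes tested separate by gate was not counted, so this order is a description only. The difference did not pass the test: the log2 fold change was -0.28 ± 0.23 (SE; edgeR adjusted p = 0.775) in Cd73 high against negative, -0.18 ± 0.16 (0.998) in Cd73 mid against negative and -0.10 ± 0.25 (0.9997) in Cd73 high against mid. The Cd73 high values rest on 28 and 22 break ends. Positions hit more than 1 time held 7.14% and 18.2% of the Slc3a2 break ends in Cd73 high, 24.7% and 33.6% in Cd73 mid and 46.1% and 47.5% in Cd73 negative libraries. With each position counted at most 1 time per library, the log2 fold change of Slc3a2 was -0.0475 in Cd73 high against negative, -0.0216 in Cd73 mid against negative and -0.0259 in Cd73 high against mid. Most of the difference was then gone, but counting in this way takes a larger share from the Cd73 negative libraries. After thinning to equal depth the log2 fold change was larger in size. It was -0.39 in Cd73 high against negative and -0.38 in Cd73 mid against negative, and neither was called.

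**Figure D1:**
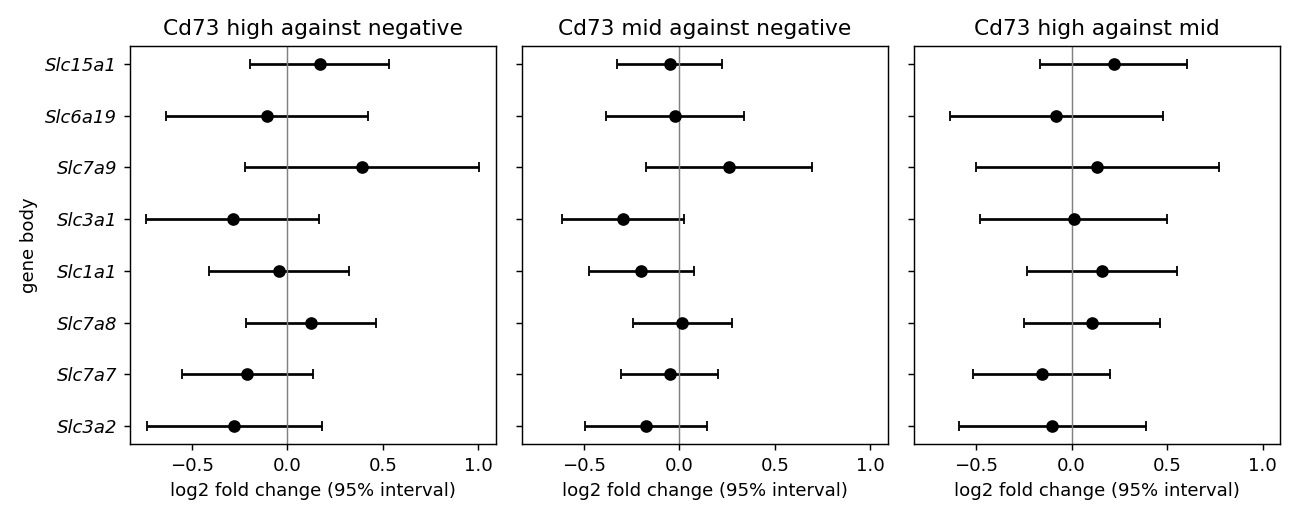
Log2 fold change of break ends in each transporter gene body (points) with its 95% interval from the edgeR fit (bars), for Cd73 high against negative, Cd73 mid against negative and Cd73 high against mid, 2 libraries per gate. Every interval crosses 0, and they reach from -0.74 to 1.01, -0.62 to 0.69 and -0.64 to 0.77 in the 3 panels.

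The 95% intervals of the fit show how wide the uncertainty is for each gene. In Cd73 high against negative they ran from -0.74 (Slc3a1) to 1.01 (Slc7a9) on the log2 scale, in Cd73 mid against negative from -0.62 to 0.69 and in Cd73 high against mid from -0.64 to 0.77, as the plot of fold changes shows. These are the outermost bounds over the 8 genes, and single genes have narrower ones, such as 0.13 as the upper bound of Slc7a7 and 0.17 as that of Slc3a1 in Cd73 high against negative. The median log2 fold change of the 8 genes was -0.07, -0.05 and 0.06 in the 3 comparisons, against -0.0021, 0.0029 and 0.0020 over all genes tested. In Cd73 high against negative 3 of the 8 values were positive and 5 negative, in Cd73 mid against negative 2 and 6, and in Cd73 high against mid 5 and 3. These comparisons share libraries and are not independent of each other. Summed over the 8 genes, 411 to 462 CPM were counted in Cd73 high, 416 to 427 CPM in Cd73 mid and 429 to 463 CPM in Cd73 negative libraries. Across the 6 libraries the 28 pairs of transporter genes had Pearson correlations of log2 CPM from -0.88 to 0.77 with a median of 0.07, a description over libraries that share 3 gates and their depth.

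Nt5e, the gene of the sorted marker, was set beside them. It held 90.4 and 65.2 CPM in Cd73 high, 72.2 and 68.9 CPM in Cd73 mid and 51.2 and 51.3 CPM in Cd73 negative libraries, so that both Cd73 negative libraries lay below the other 4. The share of all genes tested with such an order was not counted. Its log2 fold change was 0.62 ± 0.19 (SE; edgeR adjusted p = 0.325, unadjusted p = 0.00086) in Cd73 high against negative and 0.46 ± 0.14 (edgeR adjusted p = 0.998, unadjusted p = 0.00115) in Cd73 mid against negative, and neither was called. All 8 transporter genes had a smaller unsigned log2 fold change than Nt5e in both of these comparisons; the difference between Nt5e and the transporter genes was not tested.

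Of 33 other genes of amino acid and peptide transport, all were tested and 0 were called in each comparison, with 3, 1 and 0 at an unadjusted p under 0.05 in Cd73 high against negative, Cd73 mid against negative and Cd73 high against mid. Their median log2 fold changes were -0.05, -0.03 and -0.01. The smallest p in Cd73 high against negative belonged to Slc6a18, a neutral amino acid transporter of the same family as Slc6a19, with 23.0 ± 5.36 CPM in Cd73 high and 12.4 ± 3.01 CPM in Cd73 negative libraries (SD, n = 2 each; edgeR adjusted p = 0.442). Cltrn, which encodes collectrin, followed with 22.7 ± 12.8 CPM in Cd73 high and 13.4 ± 3.12 CPM in Cd73 negative libraries (SD, n = 2 each; edgeR adjusted p = 0.550).

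In Cd73 mid against negative the smallest p among the 33 belonged to Slc16a10, a transporter of aromatic amino acids, with 124 ± 14.3 CPM in Cd73 mid and 149 ± 4.55 CPM in Cd73 negative libraries (SD, n = 2 each; edgeR adjusted p = 0.998). Slc6a9, a glycine transporter that overlaps another gene, and Slc6a20a, an imino acid transporter, followed with log2 fold changes of -0.21 ± 0.13 and -0.20 ± 0.14 (SE). In Cd73 high against mid the smallest belonged to Slc6a18 again (log2 fold change 0.70 ± 0.36, SE; edgeR adjusted p = 0.9997), then Slc15a2, a second proton-coupled peptide transporter (0.59 ± 0.32), and Slc15a4, a lysosomal peptide and histidine transporter that overlaps another gene (0.42 ± 0.23). None of these differences passed the adjusted test.

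Levels can be compared between genes only per length, so break density was computed as break ends per 1000000 of the library and kb of gene body. Slc3a2 had the highest density, 1.25 ± 0.161 (SD, n = 6 libraries over the 3 gates), and Slc1a1 the lowest, 0.417 ± 0.0385, against a median of 0.595 over all genes tested. Between them lay Slc7a7 with 0.843 ± 0.0948, Slc15a1 with 0.723 ± 0.0797, Slc6a19 with 0.713 ± 0.135, Slc7a8 with 0.686 ± 0.112, Slc7a9 with 0.618 ± 0.0940 and Slc3a1 with 0.569 ± 0.0978. In this order the gap from Slc3a2 to Slc7a7 exceeded the spread of either, whereas the neighbours from Slc7a7 down to Slc3a1 differed by less than 2 SD and have no firm order.

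**Figure D2:**
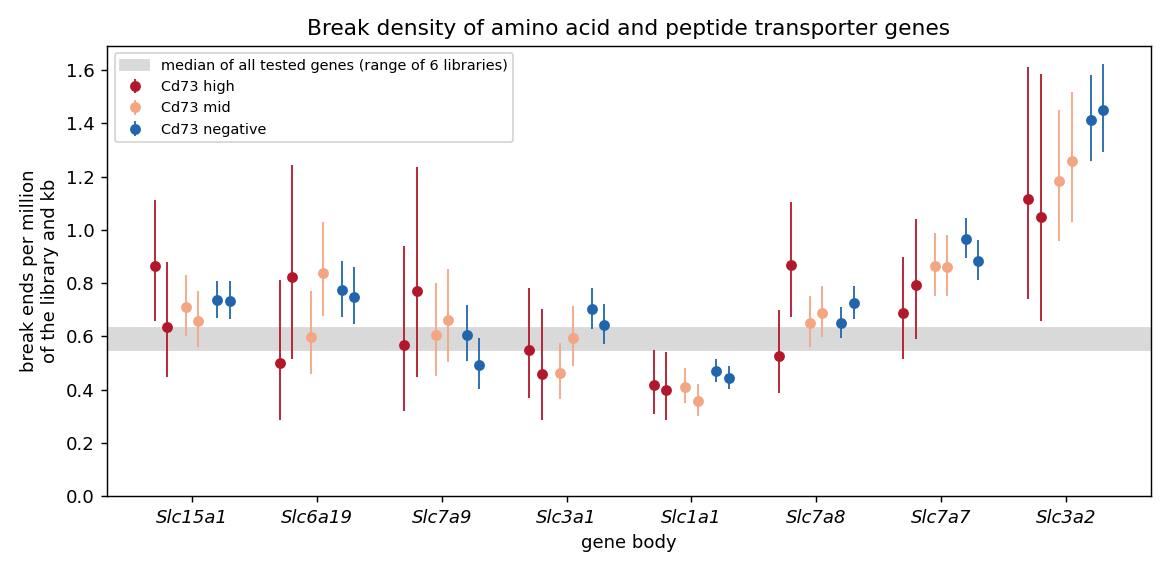
Break ends per 1000000 of the library and kb in each transporter gene body, 1 point per library in the order Cd73 high, mid and negative, with exact Poisson 95% intervals (bars, counting error only) and, in grey, the median over all tested genes (lowest to highest of 6 libraries). Slc3a2 lies above the grey band and Slc1a1 below it in all 6 libraries, and the intervals are widest for Cd73 high.

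The plot of densities shows Slc3a2 above the median of all genes tested in each library. It ran at 1.12 and 1.05 in Cd73 high, 1.19 and 1.26 in Cd73 mid and 1.41 and 1.45 in Cd73 negative libraries, while the median gene was at 0.565 and 0.547, 0.571 and 0.607, and 0.603 and 0.633. Slc1a1 lay below the median everywhere, with 0.417 and 0.399 in Cd73 high, 0.411 and 0.359 in Cd73 mid and 0.471 and 0.445 in Cd73 negative libraries. Among all genes tested, the mean density of Slc3a2 stood at percentile 89.2, that of Slc7a7 at 75.5 and that of Slc1a1 at 18.9, and the other 5 lay between percentiles 45.9 and 66.2. Density depends on gene length, so each gene was also set against genes of 0.8 to 1.25 times its length: Slc3a2 and Slc7a7 then stood at percentiles 95.8 and 95.6, Slc15a1 at 86.5, Slc7a8 at 84.4, Slc6a19 at 66.9, Slc3a1 at 53.4, Slc7a9 at 46.5 and Slc1a1 at 22.4.

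Flanks of each gene's own length, at most 50 kb on each side, gave a local comparison. Slc3a2 had 2.12 ± 0.309 times the density of its flanks (SD, n = 6), Slc15a1 1.25 ± 0.160 times and Slc7a7 1.20 ± 0.162 times, each above 1 in 6 of 6 libraries. Slc1a1 had 0.771 ± 0.0675 times the density of its flanks and was below 1 in all 6 libraries. Slc6a19 (1.11 ± 0.212), Slc7a9 (1.11 ± 0.159), Slc7a8 (1.01 ± 0.183) and Slc3a1 (0.925 ± 0.165) had ratios within 1 SD of 1. These flanks hold other genes, among them Dock9 beside Slc15a1, Wdr74 beside Slc3a2, Slc6a18 beside Slc6a19 and Lrp10 and Mmp14 beside Slc7a7, so they are not a break-free reference.

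Around the listed start, break density was higher than in the rest of the gene body for most members. The window takes in bases before the start, which can lie outside the body, so it does not show where inside a gene breaks are densest. The density within 1 kb of the listed start, on both sides, was 6.61 ± 1.66 times that of the rest of the body for Slc15a1 (SD, n = 6; 4.59 to 8.62) and 6.28 ± 2.88 times for Slc1a1 (2.99 to 10.9). For Slc3a2 it was 4.93 ± 0.195 times (4.69 to 5.18), for Slc3a1 3.46 ± 1.02 times, for Slc7a8 3.30 ± 0.988 times and for Slc7a7 1.87 ± 0.583 times, and these 6 genes were above 1 in 6 of 6 libraries. Slc7a9 at 1.5 ± 0.571 (5 of 6 libraries above 1) and Slc6a19 at 1.26 ± 0.397 (4 of 6) were not separated from 1 by their spread. Slc7a7 and Slc7a9 have further listed starts, which were not examined, so their ratios describe the most upstream start only.

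**Figure D3:**
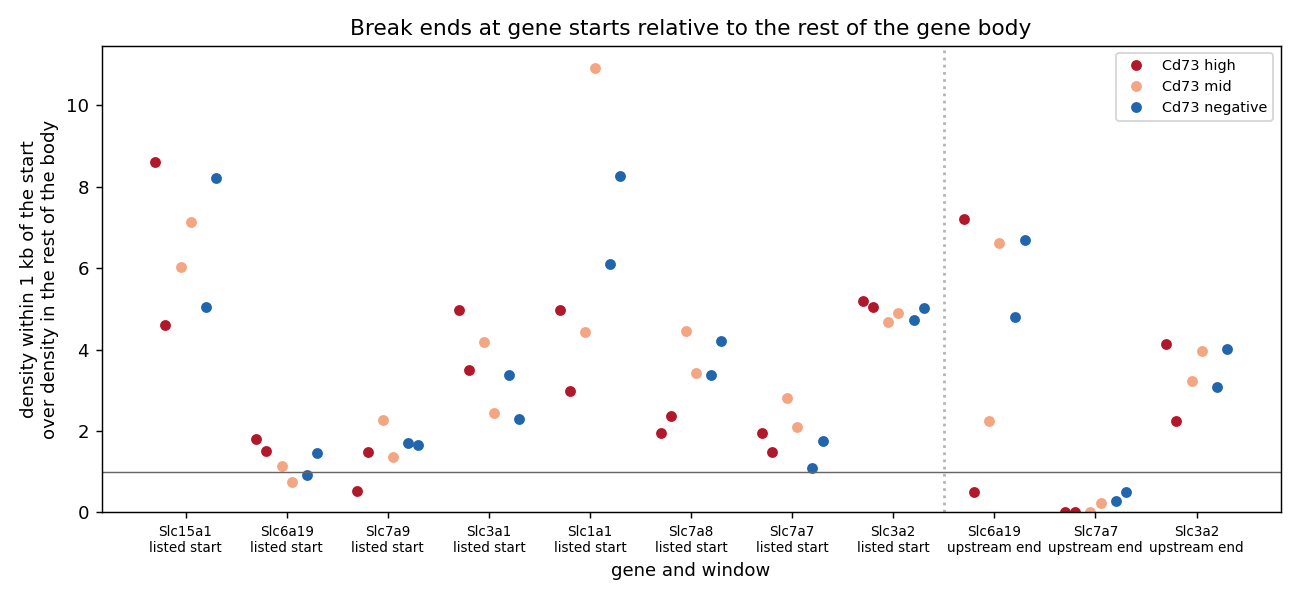
Break density within 1 kb of a gene start divided by the density in the rest of the gene body, 1 point per library (Cd73 high, mid and negative, left to right), for the listed start of each transporter gene and, right of the dotted line, for the upstream end of the gene body of Slc6a19, Slc7a7 and Slc3a2. For these genes the rest leaves out both windows. Points of Slc15a1, Slc1a1, Slc3a2, Slc3a1, Slc7a8 and Slc7a7 at the listed start all lie above the line at 1, and those of Slc7a7 at the upstream end all lie below it.

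Such a rise at the start is common among mouse genes in these libraries. A like ratio in the summed Cd73 negative libraries, with only the listed start window left out of the rest, was taken over 10618 genes with bodies over 10 kb. Its median was 3.69 (quartiles 1.72 and 6.13), and 87.7% of the genes were above 1. The ratios above also leave out the window at the upstream end for Slc6a19, Slc7a7 and Slc3a2. By that measure the Cd73 negative mean was 4.88 for Slc3a2 and 1.19 for Slc6a19, so the 2 sets of values differ. Values and percentiles that follow use the ratio over all genes. Slc1a1 with 7.13 and Slc15a1 with 6.56 stood at percentiles 81.7 and 77.9 of these genes, above the upper quartile. Slc3a2 with 3.82 and Slc7a8 with 3.81 were close to the median, and Slc3a1 with 2.86 stood at percentile 39.8. Slc7a9 with 1.69, Slc7a7 with 1.41 and Slc6a19 with 0.972 stood at percentiles 24.6, 20.3 and 11.6, in the lowest quartile.

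In counts, the start window of Slc15a1 held 17 and 7 break ends in Cd73 high, 37 and 41 in Cd73 mid and 87 and 129 in Cd73 negative libraries. That of Slc1a1 held 6 and 3, 17 and 39, and 73 and 89, and that of Slc3a2 held 10 and 9, 32 and 37, and 106 and 103 in the same order of gates. The Slc7a9 window held 1 and 3 break ends in Cd73 high, 12 and 9 in Cd73 mid and 25 and 19 in Cd73 negative libraries. The Cd73 high values of all start windows are therefore small counts, the highest being the 17 of Slc15a1.

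The start windows were compared between gates with the same edgeR test over 14077 windows, in which 7 of the 8 genes had enough counts and Slc6a19 did not. For 4392 genes without a listed start, break ends within 1 kb of either gene end were counted instead. These genes entered the same filter and test, so the 14077 are not all windows at a listed start. None of the 7 was called in Cd73 high against negative, in Cd73 mid against negative or in Cd73 high against mid, against 0% of all windows called in each and 876, 773 and 709 windows at an unadjusted p under 0.05. The smallest p of the 7 belonged to Slc7a7 in Cd73 mid against negative, with 22 and 18 break ends in Cd73 mid and 28 and 38 in Cd73 negative libraries (log2 fold change 0.87 ± 0.34, SE; edgeR adjusted p = 0.825, unadjusted p = 0.0117). Of these break ends, 8 and 7 in Cd73 mid and 1 and 7 in Cd73 negative libraries lay at position 54418128 of chromosome 14. The test was not repeated without that base. In Cd73 high against mid the start of Slc7a7 had a log2 fold change of -0.45 ± 0.61 (SE; edgeR adjusted p = 0.994), with 4 and 3 break ends in the Cd73 high libraries. For Slc15a1 the log2 fold change at the start was 0.50 ± 0.35 (SE; edgeR adjusted p = 0.871) and for Slc3a1 0.64 ± 0.50 (0.896) in Cd73 high against negative.

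**Figure D4:**
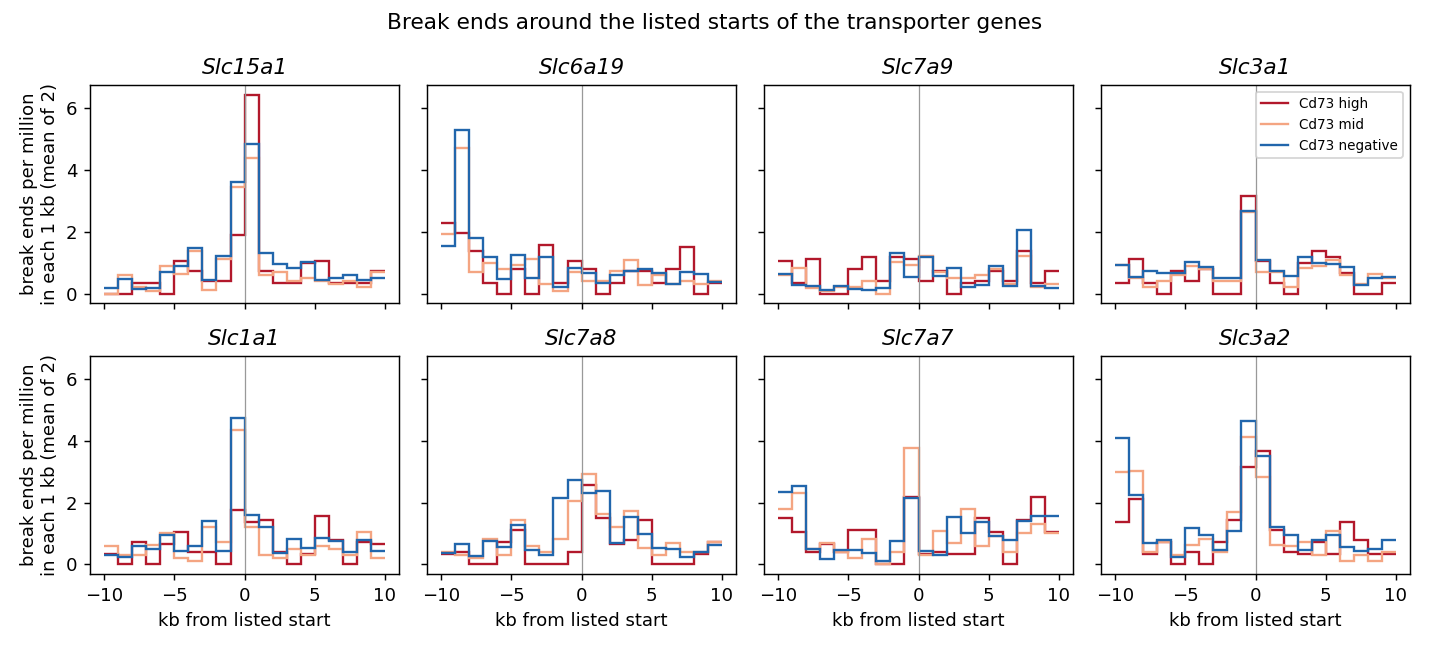
Break ends per 1000000 of the library in consecutive 1 kb bins from 10 kb before to 10 kb after the listed start of each transporter gene, in the direction of the gene, as the mean of the 2 libraries of Cd73 high, mid and negative (lines). Slc15a1, Slc1a1, Slc3a1 and Slc3a2 have their peak at the start, and Slc6a19 has its peak more than 8 kb before it.

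The profile around the starts differed between genes. In Slc15a1 the bin just after the start was the highest, with means of 6.43 break ends per 1000000 in Cd73 high, 4.4 in Cd73 mid and 4.85 in Cd73 negative libraries. In Slc1a1 the bin just before the start was the highest, with 1.77 in Cd73 high, 4.36 in Cd73 mid and 4.73 in Cd73 negative libraries, the Cd73 high value resting on few break ends. Slc7a8 had a broad rise over several kb around the start instead of a narrow one.

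Slc6a19 had its breaks elsewhere. RefSeq's promoter table lists its start 8144 bases inside the gene body, and the window within 1 kb of the upstream end of the body had 4.68 ± 2.74 times the density of the rest (SD, n = 6; 0.501 to 7.21), above 1 in 5 of 6 libraries. That window held 8 and 1 break ends in Cd73 high, 12 and 44 in Cd73 mid and 84 and 101 in Cd73 negative libraries. The densest 1 kb of the gene, chr13:73699745-73700744, held 17.4 ± 8.75% of its break ends on 4.75% of its length. Slc3a2 likewise had a further rise at its upstream end, 9472 bases from the listed start, with 3.44 ± 0.734 times the density of the rest (2.25 to 4.15), above 1 in 6 of 6 libraries. Slc7a7, whose listed start lies 2124 bases inside the body, had 0.169 ± 0.208 times at its upstream end and was below 1 in all 6 libraries. Which transcript begins at these upstream ends is not given in the tables used here.

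**Figure D5:**
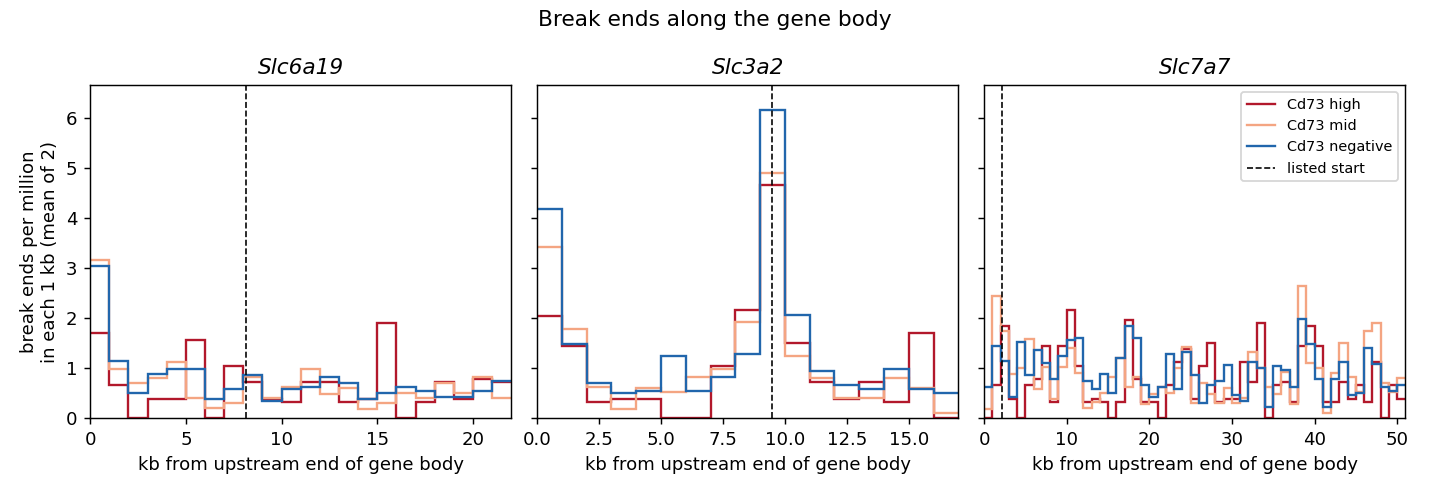
Break ends per 1000000 of the library in consecutive 1 kb bins along the bodies of Slc6a19, Slc3a2 and Slc7a7, counted from the upstream end, as the mean of the 2 libraries of Cd73 high, mid and negative (lines), with the start listed by RefSeq as a dashed line. Slc6a19 peaks at its upstream end in Cd73 mid and negative. In Cd73 high its upstream bin (1.71) and its highest bin, 15 kb into the body (1.90), are close and rest on few break ends. Slc6a19 has no peak at its listed start. Slc3a2 peaks at both, and Slc7a7 has no comparable peak.

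Single bases were hit repeatedly within these windows. In Slc3a2, position 8713903 of chromosome 19, 6 bases before the listed start, held 47 break ends (5.50% of the gene) and was hit in all 6 libraries, with 2 and 2 in Cd73 high, 2 and 6 in Cd73 mid and 17 and 18 in Cd73 negative libraries. In Slc15a1, position 121505229 of chromosome 14, 25 bases after the start and in capitals near the end of its stretch, held 42 break ends (3.32% of the gene), with 6 and 0 in Cd73 high, 3 and 6 in Cd73 mid and 15 and 12 in Cd73 negative libraries. Just upstream of Slc1a1, position 28835113 of chromosome 19, 22 bases before the start, held 42 break ends in 4 libraries.

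In Slc6a19, position 73700739 of chromosome 13, 41 bases inside the upstream end, held 43 break ends (7.18% of the gene), with 2 and 0 in Cd73 high, 2 and 16 in Cd73 mid and 10 and 13 in Cd73 negative libraries. In Slc7a7, position 54418128 of chromosome 14, 184 bases before the listed start, held 23, with 0 and 0 in Cd73 high, 8 and 7 in Cd73 mid and 1 and 7 in Cd73 negative libraries. Slc7a8 had its most hit base, with 24 break ends, deep in the gene at 47456 bases from the start. The most hit base held 12 in the Slc1a1 body, 7 in Slc3a1 and 5 in Slc7a9, which had no recurrent base of this kind.

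Over all 17805 genes tested, the most hit base held a median of 16 break ends, 11.1% of genes had a base with at least 40, and 18.0% had a base hit in all 6 libraries. Slc3a2, Slc6a19 and Slc15a1 stood at percentiles 92.4, 90.7 and 90.1 in this measure, Slc7a8 and Slc7a7 at 69.9 and 67.8, Slc1a1 at 30.6, Slc3a1 at 9.80 and Slc7a9 at 3.34. The files do not say whether a count is of reads or of unique molecules, and whether reads align uniquely at these bases was not tested, as no genome was used here. With each position counted at most 1 time per library, the ratio of start to rest was 4.49 for Slc15a1, 4.28 for Slc1a1, 3.74 for Slc3a2, 2.83 for Slc3a1, 2.66 for Slc7a8, 1.32 for Slc7a7, 1.47 for Slc7a9 and 1.29 for Slc6a19. At the upstream ends it was 3.09 ± 1.93 for Slc6a19 and 2.93 ± 0.919 for Slc3a2 (SD, n = 6). Without the most hit base of the window it was 5.57 for Slc15a1 and 4.12 for Slc3a2 at the listed start, and 3.67 for Slc6a19 at the upstream end.

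The share of a gene's break ends in its densest 1 kb window of the body varied among the genes, and for Slc3a2, Slc15a1, Slc7a7 and Slc1a1 that window lay at the listed start. The densest 1 kb held 19.2 ± 3.32% of the break ends of Slc3a2 (6.07% of its length), 14.0 ± 6.04% of those of Slc7a9 at 7134 bases from its start, and 12.7 ± 6.69% of those of Slc15a1. The Slc15a1 window was cut short by the gene end to 1.39% of its length. In the remaining genes, Slc7a7, Slc7a8, Slc3a1 and Slc1a1, it held 6.15 ± 2.50%, 6.09 ± 1.27%, 5.76 ± 2.35% and 4.24 ± 1.27%.

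The promoters at the starts used here differed in base composition as well. In the 300 bases that RefSeq's table holds for each start, from 250 before to 50 after it, 171 break ends lay in Slc15a1, 154 in Slc1a1, 121 in Slc3a2, 86 in Slc7a7, 77 in Slc3a1, 57 in Slc7a8, 22 in Slc6a19 and 11 in Slc7a9 over the 6 libraries. The GC content was 70.3% in Slc1a1, 62.7% in Slc15a1, 58.0% in Slc7a8, 57.3% in Slc6a19, 56.0% in Slc3a2, 51.0% in Slc7a7, 47.0% in Slc7a9 and 46.3% in Slc3a1, against a median of 52.7% over 32851 promoters. The observed over expected frequency of CG pairs was 0.863 in Slc1a1, 0.814 in Slc7a8 and 0.649 in Slc3a2, between 0.364 and 0.491 in Slc15a1, Slc7a7, Slc3a1 and Slc7a9, and 0.164 in Slc6a19, against a median of 0.384. Slc15a1 thus had the most break ends with a CG frequency near the median. Slc6a19 had the lowest CG frequency and 22 break ends, but Slc7a9 held fewer, 11, with a frequency near the median. Slc7a8 at 0.814 held 57, fewer than Slc7a7 and Slc3a1 at lower CG frequencies. A relation between the 2 measures was not tested.

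Motifs were searched by their letters on both strands of these 300 bases. TATAAA, the core of the TATA box, was found in Slc3a1 only and in 13.6% of all promoters. GGGCGG, the core of the GC box, was found in Slc1a1, Slc7a8, Slc7a7 and Slc3a2 and in 35.7% of all promoters, and CCAAT in Slc6a19 only and in 37.4%. A match is a description of the sequence and not a bound site.

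By Pearson correlation of log2 CPM over the 6 libraries, the genes whose counts were most like the mean of the 8 transporter genes were Nsun4 (r = 0.996), Cdadc1 (0.982) and Fmo2 (0.981). With 6 points, 84 of 17795 genes reached an r over 0.9, so these 3 names carry no more than a likeness in these libraries.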

How the data were processed

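The assay was in-suspension BLISS on mouse jejunal enterocytes, with 6 libraries, 2 in each of 3 Cd73 gates. Per the submitters' processing notes reads were aligned with BWA to GRCm38; its version, read filters and treatment of duplicates are not stated in these sources. The files deposited by the authors list positions with a count of break ends per library, not normalized and without strand. Counts were summed over 21883 protein-coding gene bodies of RefSeq GRCm38.p6 (3839 overlap another). For 17491 genes with a listed start, counts were also summed within 1 kb of it, taking the most upstream of several. For the other 4392 genes, break ends within 1 kb of either gene end were summed instead. The test was edgeR's quasi-likelihood test (edgeR 4.0.16 in R 4.3.3) after TMM scaling and the filterByExpr filter, fitted to the 3 gates together, and an adjusted p under 0.05 was called; the common dispersion was 0.00665. CPM are TMM-scaled; densities use the unscaled library. The script was tested on simulated data. Ratios of start to rest, flanks, recurrent bases and promoters are descriptions with no test. Poisson intervals of densities cover counting error only. The SE of a log2 fold change was derived from the edgeR fit, as its size divided by the square root of the F statistic. Its 95% interval reaches that SE times the t quantile to either side, and both include the spread between libraries. The alternatives tried were thinning, DESeq2 1.42.0, no low-count filter, scaling by library size, each position counted at most 1 time, leaving out each library, and a block for the replicate number. Python 3.11.15 was used for the rest.

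The members and lists were chosen with earlier results of these data known; the list of 33 transport genes excludes the 8. The text names all 8 genes, Nt5e, up to 3 of the 33 with the smallest p in each comparison (1 such gene is not reported here) and the 3 genes most like the mean of the 8; Cdk5rap2 was named after its value was seen. The ratios with each position counted at most 1 time and without the most hit base were chosen after seeing the data. The differences between replicates M1 and M2 correlated at -0.05 between Cd73 high and mid, -0.04 between Cd73 high and negative and 0.34 between Cd73 mid and negative. These values do not settle whether the numbers pair libraries. The labels do not say that they do, so the main fit has no block and the block is an alternative.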

Additional observations from a re-analysis of the deposited data

How the results depend on the processing

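The count of transporter genes called was 0 in all 3 comparisons under all 12 alternatives for gene bodies and all 8 for starts. Over all genes, Cd73 high against negative gave 1 call, 0 with no low-count filter, 46 (41 higher, 5 lower) with a replicate block on M1 and M2, and 0 to 2 with each library left out; Cd73 mid against negative gave 0 calls, 1 with each position counted at most 1 time and 4 (2 higher, 2 lower) with the replicate block. None of the added calls was a transporter gene. Of 288 log2 fold changes of the 8 genes under alternatives, 263 kept their direction, 25 changed sign, and 0 passed the threshold; the largest opposite value was 0.29 in size. Slc1a1 in Cd73 high against negative was 0.11 after thinning to equal depth. In Cd73 mid against negative, Slc7a7 was 0.22 after thinning, and Slc7a8 was -0.0100 with library size scaling and -0.0925 with each position counted at most 1 time. For Cd73 high against mid, Slc6a19 was 0.18 after thinning, Slc7a9 -0.0243 with each position counted at most 1 time, and Slc3a1 -0.0252 with library size scaling, -0.00015 with no filter and -0.0275 with each position counted at most 1 time. The cause was not tested.

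With each library left out in turn, log2 fold changes that changed sign in Cd73 high against negative ran from -0.0713 to 0.34 (Slc15a1), -0.50 to 0.25 (Slc6a19), -0.12 to 0.0367 (Slc1a1) and -0.27 to 0.47 (Slc7a8). In Cd73 mid against negative they ran from -0.15 to 0.0429 (Slc15a1), -0.25 to 0.15 (Slc6a19), -0.0220 to 0.0573 (Slc7a8) and -0.15 to 0.0553 (Slc7a7). For Cd73 high against mid they ran from -0.0161 to 0.39 (Slc15a1), -0.48 to 0.28 (Slc6a19), -0.10 to 0.37 (Slc7a9), -0.12 to 0.16 (Slc3a1) and -0.29 to 0.46 (Slc7a8). The values of Slc3a2 stayed negative under each alternative run, but with each position counted at most 1 time they were -0.0475, -0.0216 and -0.0259, against -0.28, -0.18 and -0.10. After thinning, Slc3a2 had -0.39 in Cd73 high against negative and -0.38 in Cd73 mid against negative. Thinning moved Slc7a8 to 0.56 and Slc7a9 to 0.79 in Cd73 high against negative, against 0.12 and 0.39, and Slc7a8 to 0.44 in Cd73 mid against negative, against 0.02. All thinned values come from 1 random draw, and the spread between draws was not measured. Depth limits Cd73 high most, where the genes held 15 to 66 break ends per library.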
